A study of Mus musculus with 22 samples.

Results

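The comparison described here is the priming interaction of a mouse model of Gulf War illness: the brain's response to lipopolysaccharide in mice with an old chemical exposure, minus the same response in mice without it. It was taken over 4 groups that had received vehicle and no cannabidiol, which make up 14 of the 22 libraries of the series, and over every gene that passed a filter on low counts (19451 of 56748 listed). GWVehLPS (4 mice) and GWVeh (4 mice) had been injected once daily for 10 days, from 10 weeks of age, with 0.7 mg/kg pyridostigmine bromide, an acetylcholinesterase inhibitor, and 200 mg/kg permethrin, a pyrethroid insecticide that holds voltage-gated sodium channels open. CtrlVehLPS (3 mice) and CtrlVeh (3 mice) had received the vehicle of those chemicals. All were male C57BL/6J mice kept to 17.5 months, and all had been injected with Tween 80/PBS daily for 28 days and then every 2 days for 2 weeks, as the vehicle of cannabidiol. The LPS groups then received 0.33 mg/kg lipopolysaccharide (LPS) of Escherichia coli into the peritoneum and the other groups PBS, and whole brains were taken 24 h later. In this text, exposed mice are those given the Gulf War chemicals, and control mice are those given their vehicle.

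Priming is the name for a state in which microglia, the resident macrophages of the brain, answer a later immune stimulus more strongly. It has been described in ageing, after injury and after toxic exposures. LPS is sensed by TLR4 with its partners CD14 and MD-2. From there one branch runs through NF-kB to cytokines, chemokines and adhesion molecules, and another through interferon regulatory factors to type I interferon, which acts back on cells to switch on interferon-stimulated genes. LPS given in the periphery reaches mostly the vessel wall, and endothelial cells, perivascular macrophages, microglia and astrocytes then respond in turn. In a factorial design, priming by the exposure is asked as an interaction: a positive value, in log2 units, means a larger LPS response in exposed than in control mice.

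Many interferon-stimulated genes share a known promoter motif, so 3 of their promoters are shown, those of the members that are described with values by library below and have a match. The motif GAAA, then any 2 bases, then GAAA again, the core of the interferon-stimulated response element, was searched on both strands in windows of 300 bases, 250 before the annotated start and 50 after it, from RefSeq on GRCm38.p6. Capitals mark its matches. The windows are chr7:141010695-141010994 for Ifitm3, chr12:26456403-26456702 for Rsad2 and chr5:92348840-92349139 for Cxcl10, and each is printed 5′ to 3′ along the gene, which lies on the minus strand in all 3 cases.
Ifitm3: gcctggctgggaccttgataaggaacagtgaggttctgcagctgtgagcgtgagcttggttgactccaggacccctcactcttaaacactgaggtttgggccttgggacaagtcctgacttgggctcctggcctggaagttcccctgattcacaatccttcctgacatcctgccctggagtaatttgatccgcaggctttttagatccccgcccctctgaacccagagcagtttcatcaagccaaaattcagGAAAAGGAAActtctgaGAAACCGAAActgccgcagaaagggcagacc
Rsad2: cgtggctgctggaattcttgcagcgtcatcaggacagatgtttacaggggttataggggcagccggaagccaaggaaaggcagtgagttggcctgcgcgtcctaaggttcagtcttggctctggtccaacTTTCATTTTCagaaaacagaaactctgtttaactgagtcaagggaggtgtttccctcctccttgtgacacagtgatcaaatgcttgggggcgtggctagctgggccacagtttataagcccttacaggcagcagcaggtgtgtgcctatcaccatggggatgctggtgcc
Cxcl10: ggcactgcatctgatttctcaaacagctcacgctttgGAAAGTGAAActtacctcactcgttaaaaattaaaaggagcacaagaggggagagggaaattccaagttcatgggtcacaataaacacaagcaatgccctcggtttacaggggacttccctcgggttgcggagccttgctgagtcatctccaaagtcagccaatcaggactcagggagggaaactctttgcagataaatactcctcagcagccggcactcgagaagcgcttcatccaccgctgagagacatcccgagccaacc
Ifitm3 has 2 matches just after its start, and Cxcl10 has 1 match 213 bases before its start. Rsad2 has 1 match on the opposite strand, which reads in the printed direction as the reverse complement of the motif. The motif stands in 3.44% of the 32851 promoters of the table, in 3.60% of the promoters of 13157 tested genes, and in 18 of the 26 interferon-stimulated genes with a promoter there (69.2%). These matches are letters in a window and were not tested for binding.

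The 14 libraries held 17152595 to 28779951 counts, and 3 counts, the floor for detection, were worth 0.104 to 0.175 CPM (counts scaled to an equal library total). Microglial, neuronal, astrocytic, oligodendrocytic and endothelial markers were present in every library, as a whole brain should have them. CtrlVehLPS replicate 1 stood apart. Its score for cerebellar neurons (the mean log2 CPM of 16 genes) was 3.03, against 5.86 to 6.69 in the other 13 libraries. It also held 390.4 CPM of pancreatic digestive enzyme transcripts, against 4.86 to 7.60 CPM elsewhere. Scores of 14 olfactory bulb genes were 1.06 to 2.79 in GWVehLPS and 1.37 to 1.5 in GWVeh, against 2.60 to 3.61 in CtrlVehLPS and 1.16 to 1.30 in CtrlVeh. Bulb scores thus were higher in every CtrlVehLPS library than in any PBS library and overlapped between the LPS groups, while cerebellar scores set 1 library apart. Their part in the results below was not tested except by the alternatives that are named.

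No gene passed the test of the interaction: 0 of 19451 genes (0%) had an adjusted p under 0.05 in edgeR's quasi-likelihood test, and 0 passed at 0.1. The smallest adjusted p was 0.385. At an unadjusted p under 0.05 there were 1421 genes (7.31%), where 972.55 would be expected by chance, 685 with a positive and 736 with a negative estimate. Over all genes the estimates were centred on 0, with a median of 0.0015 and 50.3% positive. DESeq2 called 6 genes, limma voom 0, and edgeR with no filter on low counts called 56.

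The precision of the design sets what could be seen. Over all tested genes, the median half-width of the 95% interval of the interaction was 0.395 log2 units. The median half-width was 1.60 for the 3289 genes with an average under 1 CPM, and 0.213 for the 3884 genes with an average log2 CPM of 6 or more. For 8316 genes the whole interval lay within 0.5 of 0, and for 13151 within 1.

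Each arm on its own did respond to LPS. Exposed mice had 146 genes past the threshold (0.751% of those tested), of which 135 rose (0.694%) and 11 fell. Control mice had 69 (0.355%), of which 60 rose (0.308%) and 9 fell. As each library was left out, these counts ran from 88 to 216 in exposed mice and from 11 (without CtrlVeh replicate 3) to 85 in control mice, and with bulb and cerebellar scores as covariates they were 148 in exposed and 25 in control mice. Exposed groups had 4 libraries each and control groups 3 each, so the 2 counts do not have the same power, and limma voom gave them in the opposite order, with 218 in exposed and 641 in control mice. Both arms called 27 genes, which is 18.5% of the calls in exposed mice and 39.1% of those in control mice, and 26 of them rose. Of the 119 genes called in exposed mice alone, 117 had the same direction in control mice, with median log2 fold changes of 0.79 in exposed and 0.40 in control mice. Of the 42 called in control mice alone, 38 had the same direction in exposed mice, with medians of 0.13 in exposed and 0.47 in control mice. A gene called in 1 arm alone tends to have its larger estimate there by the way it was chosen, so these medians are no evidence of a difference between arms.

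**Figure D1:**
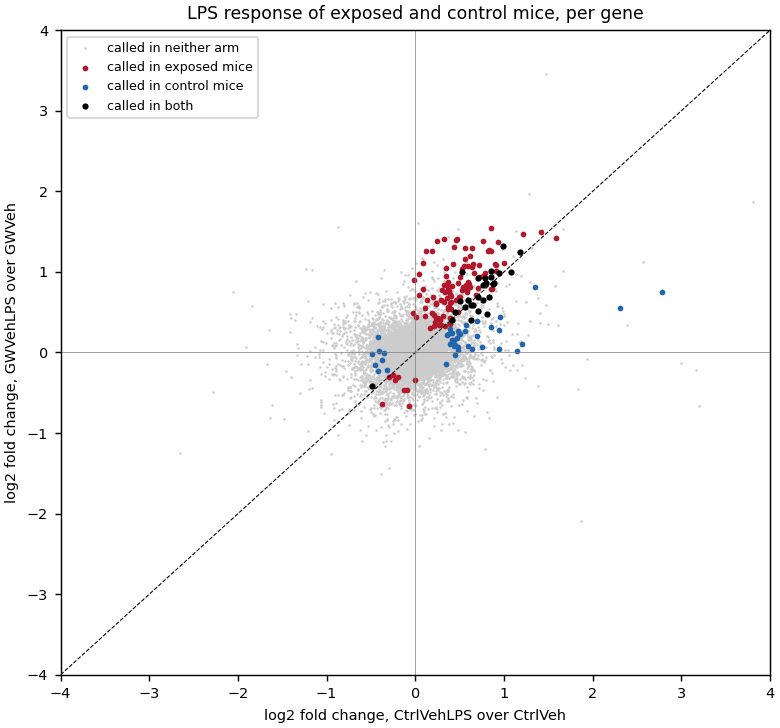
Log2 fold change with LPS in exposed mice (vertical, GWVehLPS over GWVeh) and in control mice (horizontal, CtrlVehLPS over CtrlVeh) for the 16162 tested genes with an average of at least 1 CPM (2 lie beyond the axes). Each point is a gene, colours mark edgeR calls at adjusted p 0.05 and the dashed line marks equal responses. Of the 188 genes called in either arm 180 are drawn, and the 27 called in both lie near the line, which their choice favours.

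Genes of the resident microglia answered LPS with similar estimates in the 2 arms. C1qb, a chain of the C1q complex that starts the classical complement cascade (chr4:136880129-136886187), had 72.7, 75.3, 70.9 and 66.8 CPM in GWVehLPS and 35.5, 38.6, 36.4 and 33.3 CPM in GWVeh, against 65.2, 64.1 and 65.0 CPM in CtrlVehLPS and 39.2, 31.1 and 31.3 CPM in CtrlVeh. The LPS groups of both arms lay far above their PBS groups, and every GWVehLPS library was slightly above every CtrlVehLPS library. The log2 fold change was 0.99 ± 0.08 (SE, adjusted p = 2.72e-08) in exposed mice and 0.94 ± 0.09 (SE, adjusted p = 2.03e-06) in control mice. The interaction was 0.05 (95% interval -0.19 to 0.29, adjusted p = 0.946), so differences between arms beyond -0.19 and 0.29 lie outside the interval. Over the 27 genes called in both arms, interactions ran from -0.33 to 0.47 with a median of 0.05, and all 27 intervals lay within 1 of 0. Ctss, the lysosomal protease cathepsin S, marked the upper end with 0.47 (95% interval 0.17 to 0.76, adjusted p = 0.533). The 27 were not chosen as microglial genes. Passing in both arms favours genes with like responses, so their interactions are no evidence that the arms respond alike.

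Of 22 genes of homeostatic microglia, 12 rose in exposed mice and 10 in control mice, and 0 passed in the interaction. They include Csf1r, the receptor microglia need to survive, the fractalkine receptor Cx3cr1, Tmem119, Fcrls, Olfml3, Itgam, Selplg and Mertk, all called in both arms. Of all tested genes, 0.694% rose in exposed and 0.308% in control mice. These are the shares to set beside counts of members that rose, here and below. The list's median log2 fold change was 0.51 in exposed and 0.47 in control mice, against -0.003 and -0.004 over all genes tested. The median interaction was 0.10 with 15 of 22 positive, and 0.04 to 0.18 as each library in turn was left out. The control count was less stable: 6 members were called without CtrlVehLPS replicate 1 or 2, 5, 4 and 3 without CtrlVeh replicates 1, 2 and 3, and 1 with bulb and cerebellar scores as covariates. The score of the list was 4.25 to 4.52 in GWVehLPS and 3.86 to 3.99 in GWVeh, against 4.35 to 4.43 in CtrlVehLPS and 3.93 to 3.98 in CtrlVeh. LPS libraries lay wholly above PBS libraries in both arms, as in 20 of 47 lists scored in exposed and 17 in control mice. In 1 list in exposed and 3 in control mice they lay wholly below. For the microglial list, the 2 arms overlapped in both states. The 3 members with the smallest interaction p were Tgfbr2, a TGF-beta receptor chain, with 0.34 (interval 0.06 to 0.63), Golm1 with 0.40 (interval 0.07 to 0.73) and Sall1, a transcription factor of microglial identity, with -0.30 (interval -0.63 to 0.03). Sall1, which rose in control mice, had 29.1, 29.8, 36.9 and 24.9 CPM in GWVehLPS and 22.3, 25.7, 22.5 and 21.6 CPM in GWVeh, against 43.3, 34.6 and 34.6 CPM in CtrlVehLPS and 24.1, 24.7 and 21.1 CPM in CtrlVeh. Its estimate had the opposite sign with bulb and cerebellar scores as covariates (0.09). In whole tissue, more cells of a type and more RNA per cell cannot be told apart.

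Interferon-stimulated genes had larger LPS estimates in exposed mice, without any of them passing the test of the difference. Of 39 tested, 7 rose in exposed mice (Bst2, Ifi44, Ifitm3, Irf7, Oas1a, Oasl2 and Trim30a) and 0 in control mice. Over all tested genes the shares were 0.694% and 0.308%. DESeq2 called 13 of the 39 in exposed and 1 in control mice, and limma voom 11 and 5. Those shares are of edgeR calls and do not hold for the other methods. Over all genes, rising or falling, DESeq2 called 248 in exposed and 182 in control mice. Limma voom called 641 in control mice, more than in exposed mice. The median log2 fold change was 0.69 in exposed and 0.27 in control mice. Interaction estimates were positive for 33 of 39, against 50.3% over all genes, with a median of 0.33 against 0.0015 over all genes. The score was 2.16 to 2.32 in GWVehLPS and 1.49 to 1.70 in GWVeh, against 1.74 to 2.14 in CtrlVehLPS and 1.46 to 1.77 in CtrlVeh. Every GWVehLPS library thus lay above every CtrlVehLPS library, and the PBS groups overlapped. Of 47 lists scored, 9 had every GWVehLPS library above every CtrlVehLPS library and 2 had every one below. Among the 9 were endothelial identity, blood-brain barrier junctions and mitochondrially encoded genes. Gene by gene, 11 of 39 had every GWVehLPS library above every CtrlVehLPS library, which 2.8% of all tested genes did, and 0 had every one below, which 2.62% did. With PBS, 0 of 39 had every GWVeh library above every CtrlVeh library, as 4.79% of all genes did, and 1 had every one below, as 4.74% did.

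Ifitm3, a membrane protein that blocks virus entry (chr7:141009586-141010770), had the smallest interaction p of the list. It had 19.0, 15.6, 14.2 and 20.0 CPM in GWVehLPS and 9.05, 7.43, 6.87 and 4.68 CPM in GWVeh, against 9.73, 11 and 12.6 CPM in CtrlVehLPS and 6.04, 8.26 and 7.02 CPM in CtrlVeh. GWVehLPS lay above all other groups, and CtrlVehLPS above CtrlVeh. It rose in exposed mice by 1.30 ± 0.16 (SE, adjusted p = 7.06e-05) and had 0.63 ± 0.19 (SE, adjusted p = 0.188) in control mice, with an interaction of 0.66 (95% interval 0.15 to 1.17, adjusted p = 0.612). It has close family members, so its counts are uncertain. Rsad2, the antiviral enzyme viperin, had 1.96, 3.14, 2.80 and 2.72 CPM in GWVehLPS and 1.51, 0.853, 1.45 and 0.918 CPM in GWVeh, against 1.41, 1.69 and 2.05 CPM in CtrlVehLPS and 0.855, 1.89 and 1.98 CPM in CtrlVeh. The LPS groups overlapped in 1 library, with 1.96 CPM in the lowest GWVehLPS and 2.05 CPM in the highest CtrlVehLPS library. The interaction was 1.07 (95% interval 0.17 to 1.96, adjusted p = 0.628). Gbp3, a guanylate-binding protein, had an interaction of 0.89 (interval 0.13 to 1.64). Irf7, the master regulator of type I interferon, had 8.89, 4.24, 4.59 and 4.75 CPM in GWVehLPS and 2.56, 1.51, 2.11 and 1.92 CPM in GWVeh, against 1.63, 5.01 and 4.69 CPM in CtrlVehLPS and 2.34, 1.25 and 1.28 CPM in CtrlVeh. One GWVehLPS library was high and CtrlVehLPS replicate 1 was as low as a PBS library. Irf7 rose in exposed mice by 1.47 ± 0.33 (SE, adjusted p = 0.0439), had 1.21 ± 0.40 (SE, adjusted p = 0.263) in control mice, and its interaction was 0.26 (95% interval -0.84 to 1.36, adjusted p = 0.939). That estimate was -0.06 without GWVehLPS replicate 1, -0.14 without CtrlVehLPS replicate 1, -0.07 without CtrlVeh replicate 1 and -0.73 with bulb and cerebellar scores as covariates.

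CtrlVehLPS replicate 1 had the lowest score of its group for this list (1.74). Without that library the median interaction was 0.26, with 30 of 39 positive, and with bulb and cerebellar scores as covariates it was 0.21, with 29 positive. Leaving out 1 library at a time moved the median between 0.23 and 0.43 and the number called in exposed mice between 2 (without GWVehLPS replicate 1 or 3 or GWVeh replicate 2) and 13 (without CtrlVehLPS replicate 1). It was 3 without GWVeh replicate 1, 3 or 4, and 4 without GWVehLPS replicate 2 or CtrlVeh replicate 2.

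**Figure D2:**
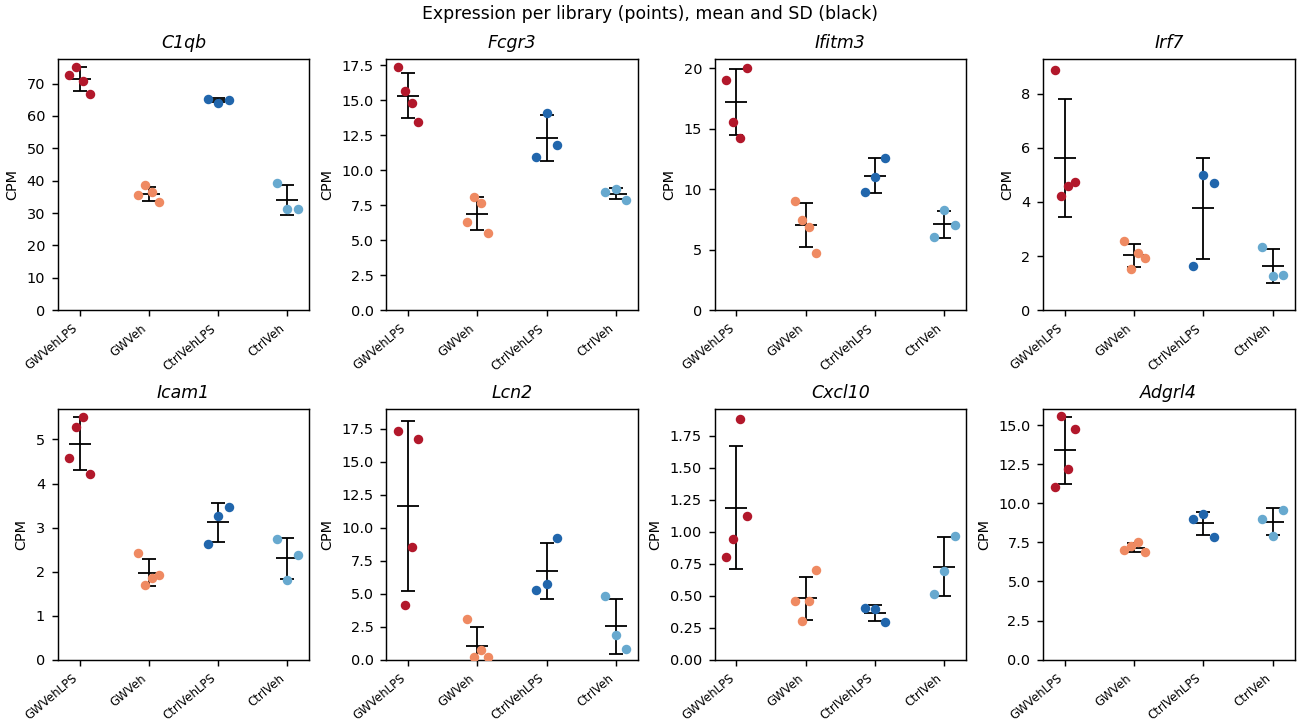
CPM of 8 genes in each of the 14 libraries, 1 point per mouse, with the group mean and SD in black and groups from left to right GWVehLPS, GWVeh, CtrlVehLPS and CtrlVeh. C1qb, Ifitm3, Icam1, Cxcl10 and Adgrl4 have every GWVehLPS library above every CtrlVehLPS library, by a small margin for C1qb, whose LPS groups both lie well above their PBS groups.

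Receptors for the constant part of antibodies, which let phagocytes take up coated particles, included genes that rose with LPS, and 0 passed the test of the difference. Of 9 tested genes of Fc receptors and their signalling adaptors, 6 rose in exposed mice (Fcer1g, Fcgr1, Fcgr2b, Fcgr3, Fcgr4 and Tyrobp) and 1 in control mice (Fcer1g). Over all tested genes the shares were 0.694% and 0.308%. With 4 libraries per exposed group and 3 per control group, the 2 counts do not have the same power. Median log2 fold changes of the list were 0.92 in exposed and 0.56 in control mice, and the median interaction was 0.41 with 7 of 9 positive. Scores were 2.86 to 3.07 in GWVehLPS and 1.82 to 2.18 in GWVeh, against 2.68 to 2.75 in CtrlVehLPS and 1.99 to 2.19 in CtrlVeh, so the LPS groups did not overlap. Fcgr3, an activating low-affinity receptor (chr1:171051174-171064935), had 17.4, 15.7, 14.8 and 13.5 CPM in GWVehLPS and 6.31, 8.08, 7.65 and 5.51 CPM in GWVeh, against 10.9, 14.1 and 11.8 CPM in CtrlVehLPS and 8.44, 8.68 and 7.87 CPM in CtrlVeh. Its interaction was 0.60 (95% interval 0.19 to 1.01, adjusted p = 0.569), with 1 of 3 CtrlVehLPS libraries inside the GWVehLPS range. Tyrobp (DAP12), the adaptor of many microglial receptors, had an interaction of 0.50 (interval 0.08 to 0.92), and the inhibitory receptor Fcgr2b had 0.42 (interval -0.11 to 0.95). Leaving out 1 library at a time moved the list's median between 0.26 (without CtrlVehLPS replicate 2) and 0.48, and 6 members were called in exposed mice each time. With the tissue scores as covariates the median was 0.46.

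Among 19 complement genes, 7 rose in exposed mice (among them C1qa, C1qb, C1qc, C3ar1, Itgam and Itgb2) and 4 in control mice (C1qa, C1qb, C1qc and Itgam). Over all tested genes the shares were 0.694% and 0.308%. Median log2 fold changes of the list were 0.61 in exposed and 0.24 in control mice, and 16 of 19 interactions were positive, with a median of 0.21. Itgb2, the shared beta chain of the complement receptors CR3 and CR4, had 10.8, 9.61, 10.3 and 8.65 CPM in GWVehLPS and 3.52, 3.71, 5.79 and 4.07 CPM in GWVeh, against 6.99, 7.60 and 7.85 CPM in CtrlVehLPS and 4.62, 4.75 and 5.24 CPM in CtrlVeh. All GWVehLPS libraries lay above all CtrlVehLPS libraries, and the interaction was 0.59 (95% interval 0.11 to 1.06, adjusted p = 0.628). Serping1, the C1 inhibitor, had 0.60 (interval 0.10 to 1.09). C3, the central component of the cascade, had 10.2, 10.8, 6.79 and 6.25 CPM in GWVehLPS and 6.49, 6.32, 5.01 and 1.84 CPM in GWVeh, against 3.18, 7.15 and 7.50 CPM in CtrlVehLPS and 2.51, 3.46 and 5.43 CPM in CtrlVeh, with wide overlap between arms and an interaction of 0.21 (interval -1.15 to 1.57). The list's median was 0.11 without CtrlVehLPS replicate 1 and 0.09 with the tissue scores as covariates. The estimate of C3 had the opposite sign with those covariates (-0.28).

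Genes of activated and disease-associated microglia had 4 of 28 members called in exposed mice (B2m, Ctsz, Ncf1 and Tyrobp) and 0 in control mice. Their median interaction was 0.23 with 20 positive, and it was 0.09 without GWVehLPS replicate 2, 0.14 without CtrlVehLPS replicate 1 and 0.12 without CtrlVeh replicate 3. By limma voom it was 0.02. Cd68, a lysosomal protein of phagocytes, had 12.7, 10.1, 8.44 and 8.17 CPM in GWVehLPS and 5.90, 6.22, 8.61 and 7.13 CPM in GWVeh, against 6.69, 6.59 and 6.91 CPM in CtrlVehLPS and 6.84, 8.08 and 6.71 CPM in CtrlVeh. GWVehLPS lay above all the other libraries except 1 of GWVeh, and the interaction was 0.61 (95% interval 0.12 to 1.09, adjusted p = 0.621). Cybb, the catalytic subunit of the phagocyte oxidase, had 1.31 (interval 0.26 to 2.36). Antigen presentation by MHC class I had 2 of 12 members called in exposed mice (B2m and H2-K1) and 0 in control mice, with a median interaction of 0.15 that was 0.04 without CtrlVehLPS replicate 1 and 0.28 without CtrlVehLPS replicate 3. Its members with the smallest p were H2-D1 with 0.39 (interval 0.06 to 0.73), whose counts are uncertain because class I genes are close copies, B2m, the light chain, with 0.25 (interval 0.00 to 0.50) and the transactivator Nlrc5 with 0.67 (interval -0.25 to 1.59). Aif1 (IBA1), a marker of microglia, had a negative estimate of -0.58 (interval -1.23 to 0.06).

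**Figure D3:**
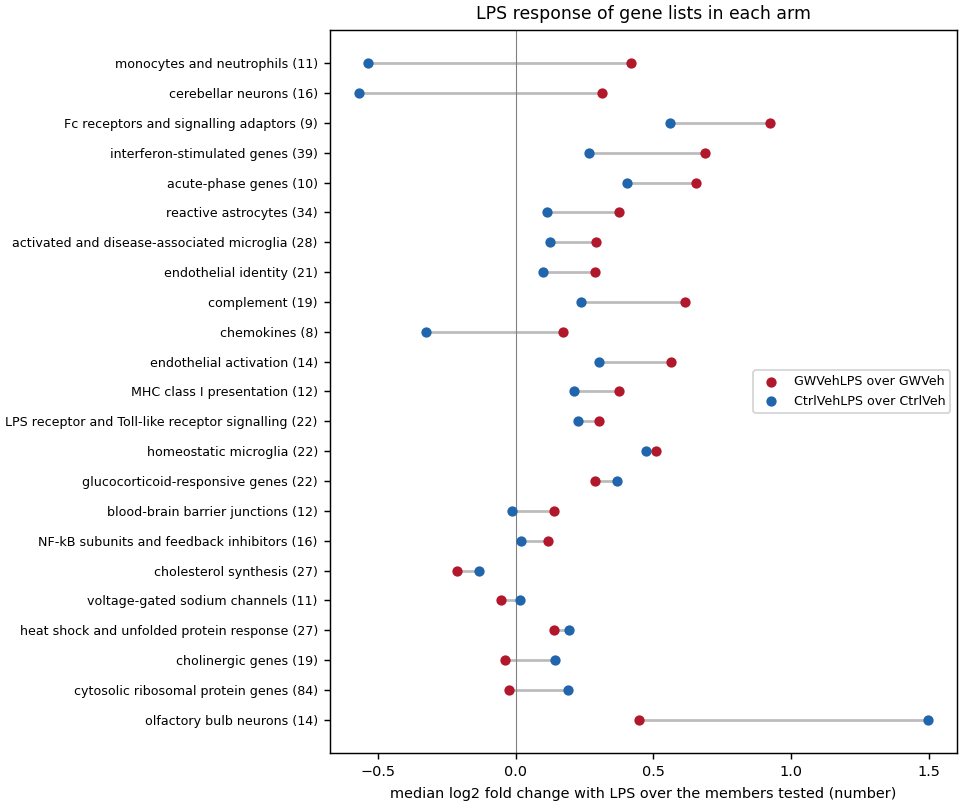
Median log2 fold change with LPS over the tested members of 23 gene lists (number in brackets), with exposed mice in red (GWVehLPS over GWVeh) and control mice in blue (CtrlVehLPS over CtrlVeh), ordered by the median interaction. Interferon-stimulated, Fc receptor and complement genes lie further right in exposed mice, homeostatic microglia lie at 0.51 and 0.47, and the monocyte, cerebellar and bulb lists stand at the 2 ends.

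Genes of the LPS receptor and its transducers included members that rose with LPS. Over all tested genes, 0.694% rose in exposed and 0.308% in control mice. Of 22 genes of LPS and Toll-like receptor signalling, 2 rose in exposed mice (Ly86 and Tlr7) and 1 in control mice (Ly86), with a median interaction of 0.13 and 14 positive. The median ran from 0.04 (without CtrlVehLPS replicate 3) to 0.18 as each library was left out. Tlr4 itself had 1.61, 2.00, 2.98 and 1.98 CPM in GWVehLPS and 0.823, 1.15, 0.910 and 1.66 CPM in GWVeh, against 1.26, 3.15 and 2.17 CPM in CtrlVehLPS and 2.28, 2.03 and 1.82 CPM in CtrlVeh, at an interaction of 0.82 (interval -0.10 to 1.75). Its co-receptor Cd14 had -0.18 (interval -0.93 to 0.57). Tlr7, a receptor for single-stranded RNA, had the smallest interaction p of the list. It had 2.76, 2.90, 2.29 and 2.83 CPM in GWVehLPS and 0.869, 1.25, 1.61 and 1.71 CPM in GWVeh, against 2.29, 3.21 and 2.05 CPM in CtrlVehLPS and 2.51, 2.54 and 2.29 CPM in CtrlVeh. GWVeh lay below all libraries of the other groups, and the LPS groups overlapped. It rose in exposed mice by 0.98 ± 0.24 (SE, adjusted p = 0.0491), had 0.04 ± 0.27 (SE, adjusted p = 0.97) in control mice and an interaction of 0.94 (95% interval 0.21 to 1.67, adjusted p = 0.612). The double-stranded RNA receptor Tlr3 had 0.44 (interval 0.07 to 0.81) and the LPS-binding protein gene Lbp 0.84 (interval 0.11 to 1.56). The score of this list lay lower in every GWVeh library (1.69 to 1.80) than in every CtrlVeh library (1.83 to 1.85), and the LPS groups overlapped. Of 47 lists scored, 1 lay below in this way with PBS and 1 lay above. Of 16 genes of NF-kB and its feedback inhibitors 0 passed in either arm or in the interaction. An unadjusted interaction p under 0.05 was held by 2 of the 16, against 7.31% of all genes. The median interaction of the 16 was 0.04, or -0.06 with the tissue scores as covariates. Nfkbie had 0.67 (interval 0.10 to 1.23), Nfkb2 0.84 (interval 0.11 to 1.56) and Nfkbia -0.33 (interval -0.71 to 0.06).

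The cytokines most often read as LPS outcomes were at or near the detection floor after 24 h. Tnf had 0 to 4 counts per library, Il1b 2 to 15, Il6 0 to 6 and Ccl2 0 to 21, and they did not pass the filter on low counts, so no fold change is given. Cxcl10, an interferon-induced chemokine that draws T cells (chr5:92346638-92348889), passed with low counts. It had 0.805, 0.941, 1.88 and 1.12 CPM in GWVehLPS and 0.457, 0.301, 0.455 and 0.700 CPM in GWVeh, against 0.407, 0.394 and 0.293 CPM in CtrlVehLPS and 0.513, 0.692 and 0.970 CPM in CtrlVeh. All GWVehLPS libraries lay above all others except 1 of CtrlVeh, and CtrlVehLPS held the lowest group mean. The log2 fold change was 1.28 ± 0.39 (SE, adjusted p = 0.176) in exposed and -0.99 ± 0.49 (SE, adjusted p = 0.46) in control mice, and the interaction was 2.27 (95% interval 0.97 to 3.57, adjusted p = 0.531). Of 8 chemokine genes tested 7 had positive estimates, with a median of 0.20 (0.11 to 0.43 as each library was left out), and 1 rose in exposed mice (Ccl12). Cx3cl1, the neuronal ligand of the microglial fractalkine receptor, had -0.26 (interval -0.48 to -0.04) and Ccl3 1.81 (interval -0.07 to 3.68). The inflammasome sensor Nlrp3 had 0.82 (interval -0.55 to 2.20) and the prostaglandin synthase Ptgs2 -0.07 (interval -0.60 to 0.46).

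At the vessel wall, several genes rose in exposed mice, and 0 passed in control mice or in the interaction. Icam1, the endothelial adhesion molecule that stops leukocytes (chr9:21015985-21028817), had 4.58, 5.29, 5.51 and 4.22 CPM in GWVehLPS and 2.42, 1.71, 1.86 and 1.92 CPM in GWVeh, against 2.63, 3.26 and 3.46 CPM in CtrlVehLPS and 2.74, 1.80 and 2.37 CPM in CtrlVeh. Every GWVehLPS library lay above every other library, and CtrlVehLPS overlapped CtrlVeh. It rose in exposed mice by 1.31 ± 0.20 (SE, adjusted p = 0.000568), had 0.43 ± 0.23 (SE, adjusted p = 0.498) in control mice and an interaction of 0.87 (95% interval 0.25 to 1.5, adjusted p = 0.582). Of 14 genes of endothelial activation, 3 rose in exposed mice (Icam1, Sele and Selp) and 0 in control mice. The median interaction was 0.18, and it ran from 0.05 (without CtrlVehLPS replicate 1) to 0.30 (without GWVeh replicate 1) as each library was left out. Icam2 had 1.18 (interval 0.06 to 2.30) and Vcam1 0.36 (interval 0.00 to 0.71).

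Adgrl4 (ELTD1), an adhesion receptor of endothelial cells (chr3:151437887-151545086), was among the 8 genes with the smallest interaction p and a positive estimate. It had 11, 15.6, 12.2 and 14.7 CPM in GWVehLPS and 7.0, 7.28, 7.53 and 6.87 CPM in GWVeh, against 8.99, 9.29 and 7.85 CPM in CtrlVehLPS and 9.01, 7.89 and 9.58 CPM in CtrlVeh. GWVehLPS lay above all others, GWVeh lay below all others, and the control groups overlapped each other. The log2 fold change was 0.90 ± 0.13 (SE, adjusted p = 0.000236) in exposed and -0.02 ± 0.15 (SE, adjusted p = 0.978) in control mice, and the interaction was 0.92 (95% interval 0.52 to 1.32, adjusted p = 0.385). Of 21 endothelial identity genes 3 rose in exposed mice (Ly6a, Ly6c1 and Pecam1) and 0 in control mice, and 17 had positive interactions, with a median of 0.21. Slco1a4, an organic anion carrier of the blood-brain barrier, had 0.54 (interval 0.23 to 0.86). It had 20.8, 27.5, 27.6 and 20.8 CPM in GWVehLPS, against 21.6, 24.2 and 20.6 CPM in CtrlVehLPS, so the LPS groups overlapped, while GWVeh (17.1 to 20.4 CPM) lay below CtrlVeh (24.1 to 25.6 CPM). Pecam1 had 0.49 (interval 0.04 to 0.94) and Ly6c1 0.44 (interval 0.00 to 0.88). The estimate of Pecam1 changed sign with the tissue scores as covariates (-0.05). Of 12 junction genes of the barrier 10 had positive estimates with a median of 0.06, led by Ocln (0.60), Lsr (0.74) and Marveld2 (0.94), and without CtrlVehLPS replicate 1 the median was 0.01 with 6 positive.

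Acute-phase genes, which vessels and glia make in systemic inflammation, had 9 of 10 positive interactions and a median of 0.30. Lcn2, the iron-binding lipocalin, had 17.3, 4.12, 8.54 and 16.7 CPM in GWVehLPS and 3.11, 0.201, 0.703 and 0.219 CPM in GWVeh, against 5.25, 5.74 and 9.20 CPM in CtrlVehLPS and 4.84, 1.89 and 0.814 CPM in CtrlVeh. GWVeh held values from 0.201 to 3.11 CPM and both LPS groups spread widely, and the interaction was 1.98 (interval -0.70 to 4.66). Cp (ceruloplasmin) rose in exposed mice by 0.55 ± 0.12 (SE, adjusted p = 0.0149) and had an interaction of 0.44 (interval 0.07 to 0.81). The direction of this list depended on the fit: with bulb and cerebellar scores as covariates its median was -0.19 with 4 of 10 positive, and without CtrlVehLPS replicate 1 it was 0.14. Genes of monocytes and neutrophils had 11 of 11 positive estimates and a median of 0.95 that was -0.04 with the covariates, 0.34 without CtrlVeh replicate 1 and 0.45 without GWVehLPS replicate 4. S100a8 had 1.08, 0.471, 0.505 and 5.61 CPM in GWVehLPS and 2.79, 0.401, 1.03 and 0.700 CPM in GWVeh, against 0.740, 1.29 and 0.293 CPM in CtrlVehLPS and 5.59, 2.77 and 0.233 CPM in CtrlVeh. No group lay apart from the others. Chil3 had 2.65 (interval -0.51 to 5.81).

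Of 34 genes of reactive astrocytes, 2 rose in exposed mice (Cp and Fbln5) and 1 in control mice (Fkbp5). The median interaction was 0.23 with 25 positive, and scores were 2.81 to 2.94 in GWVehLPS and 2.25 to 2.55 in GWVeh, against 2.43 to 2.71 in CtrlVehLPS and 2.37 to 2.46 in CtrlVeh. The LPS groups did not overlap. Without CtrlVehLPS replicate 1 the median was 0.09, and with the covariates 0.03. Gfap, the intermediate filament of astrocytes, had 435, 486, 346 and 316 CPM in GWVehLPS and 342, 342, 306 and 239 CPM in GWVeh, against 250.1, 343 and 357 CPM in CtrlVehLPS and 275, 237 and 286 CPM in CtrlVeh, with an interaction of 0.11 (interval -0.45 to 0.68). Glucocorticoid-responsive genes, targets of the stress hormone receptor, had 7 of 22 that rose in exposed mice (Angptl4, Cdkn1a, Cebpd, Fam107a, Mertk, Sult1a1 and Tsc22d3) and 2 in control mice (Fkbp5 and Mertk). Over all tested genes the shares were 0.694% and 0.308%. The list had a median log2 fold change of 0.29 in exposed and 0.37 in control mice. Its median interaction was 0.06, or -0.09 with the covariates. Without GWVeh replicate 4, 4 members were called in exposed mice. Angptl4 had 1.03 (interval 0.29 to 1.77), Arl4d -0.59 (interval -1.04 to -0.13) and Fam107a 0.41 (interval 0.09 to 0.73). Fam107a, an actin-binding protein of astrocytes and neurons, rose in exposed mice by 0.78 ± 0.10 (SE, adjusted p = 0.000409) and had 0.37 ± 0.11 (SE, adjusted p = 0.222) in control mice.

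The genes with the smallest interaction p in each direction did not pass the adjusted threshold (adjusted p 0.385 to 0.531 for the 8 taken from each side). On the positive side were Olfm3 (0.61), Adgrl4 (0.92), Cadps2 (0.42), Apoo-ps (2.27, a pseudogene whose reads cannot be told from those of its parent), Icosl (0.86), Hmgb2 (1.33), Mindy2 (0.45) and Ephb2 (0.56). On the negative side were Cntnap3 (-1.0), Hap1 (-0.50), Celf6 (-0.59), Cpne6 (-0.44), Marcksl1 (-0.66), Ptpn14 (-0.72), Trh (-1.12) and Sez6 (-0.37). These 16 were chosen by the interaction, so what follows describes them and supports nothing.

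Olfm3, a secreted olfactomedin that binds glutamate receptors (chr3:114904078-115125722), had 54.9, 65.9, 61.9 and 59.0 CPM in GWVehLPS and 52.6, 52.3, 46.6 and 60.6 CPM in GWVeh, against 49.3, 56.8 and 46.7 CPM in CtrlVehLPS and 67.7, 73.9 and 63.4 CPM in CtrlVeh. With PBS the exposed libraries lay below the control libraries, and with LPS the 2 arms overlapped. It fell in control mice. Its log2 fold change was 0.19 ± 0.08 (SE, adjusted p = 0.462) in exposed and -0.42 ± 0.10 (SE, adjusted p = 0.0494) in control mice. Hap1, the huntingtin-associated trafficking protein (chr11:100347327-100356128), had 233, 252, 233 and 231 CPM in GWVehLPS and 256, 294, 276 and 225 CPM in GWVeh, against 250.3, 246 and 259 CPM in CtrlVehLPS and 205, 201 and 185 CPM in CtrlVeh. CtrlVeh lay below every other library, and the other 3 groups overlapped. Its log2 fold change was -0.15 ± 0.07 (SE, adjusted p = 0.506) in exposed and 0.35 ± 0.08 (SE, adjusted p = 0.0494) in control mice, where it passed. Trh, the gene of thyrotropin-releasing hormone (chr6:92242061-92244650), also a bulb marker here, had 10.1, 12.2, 10.8 and 7.74 CPM in GWVehLPS and 10.7, 13.1, 10.3 and 6.34 CPM in GWVeh, against 13.5, 11 and 12.2 CPM in CtrlVehLPS and 5.19, 6.23 and 5.20 CPM in CtrlVeh. Again CtrlVeh alone stood apart, and the log2 fold change was 0.02 ± 0.17 (SE, adjusted p = 0.982) in exposed and 1.15 ± 0.20 (SE, adjusted p = 0.0127) in control mice.

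This shape was common among the 16. With PBS, GWVeh lay wholly below CtrlVeh in 5 of the 8 positive genes, as in 4.74% of all tested genes. It lay wholly above in 6 of the 8 negative genes, as in 4.79% of all tested genes. In the exposed arm, with 4 libraries against 4, LPS and PBS libraries did not overlap in 5 of 16, as in 5.98% of all tested genes. In the control arm, with 3 against 3, they did not overlap in 14 of 16, as in 17.5% of all tested genes, so the 2 counts cannot be set against each other. With LPS, GWVehLPS lay wholly above CtrlVehLPS in 6 of the 8 positive genes, as in 2.8% of all tested genes. It lay wholly below in 3 of the 8 negative genes, as in 2.62% of all tested genes. Many of the leading estimates thus came with a difference between the PBS groups and a change in the control arm. Choice by the interaction favours both.

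**Figure D4:**
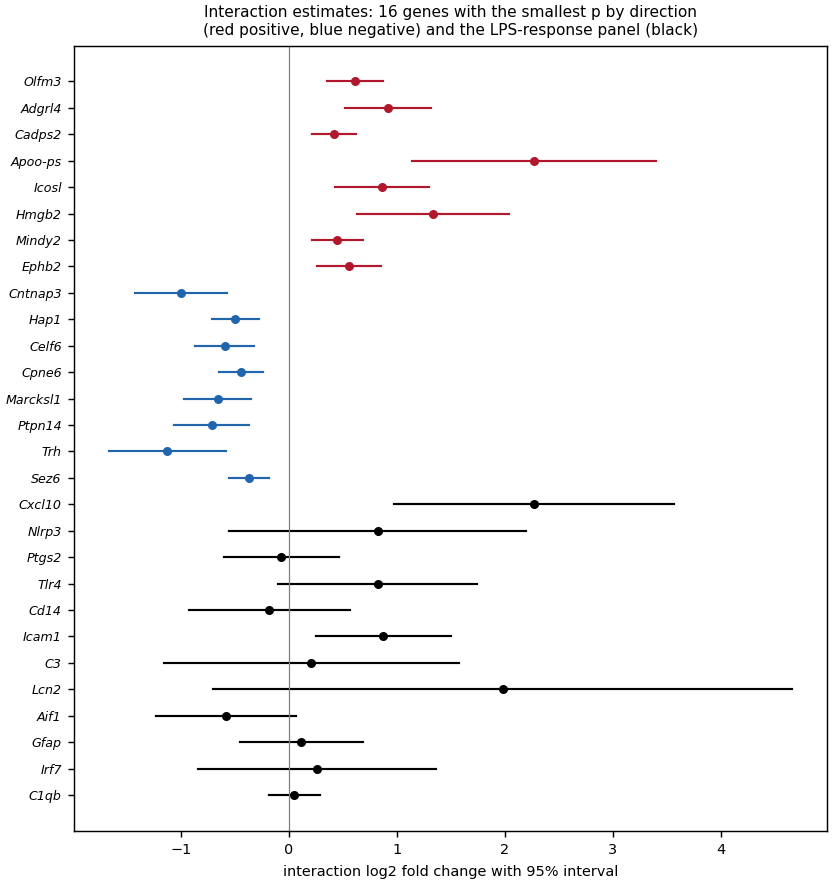
Interaction log2 fold change (point) and 95% interval (line) for the 8 genes with the smallest p in each direction, red positive and blue negative, and in black the 12 tested genes of the LPS-response panel. The interval of C1qb is narrow and includes 0, those of Icam1 and Cxcl10 lie above 0 without passing the adjustment, and those of Lcn2, Nlrp3, C3 and Irf7 include 0 and are wide.

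Another list was drawn without any of the 14 libraries. It held the 100 genes with the smallest p among those with a positive LPS estimate in the 8 libraries of exposed mice treated with 30 mg/kg cannabidiol. Of these, 12 had an adjusted p under 0.05 there, and the highest adjusted p was 0.142. Over these 100 genes the median log2 fold change was 0.19 in exposed and 0.19 in control mice, against -0.003 and -0.004 over all genes. The median interaction was 0.02 with 52 of 100 positive. The score was 6.78 to 6.99 in GWVehLPS and 6.49 to 6.72 in GWVeh, against 6.69 to 6.82 in CtrlVehLPS and 6.51 to 6.59 in CtrlVeh. Among the first 8 were Sparc (0.11), Gstm1 (0.10), Sparcl1 (0.04), Tsc22d3 (0.07), Mobp (0.20), Scg3 (0.18) and Tns3 (0.02). Sparc, an astrocytic and vascular matrix protein, had 707, 859.5, 628 and 699 CPM in GWVehLPS and 596, 539, 490.3 and 382 CPM in GWVeh, against 558, 645 and 577 CPM in CtrlVehLPS and 451, 416 and 464 CPM in CtrlVeh. Every LPS library lay above every PBS library of its own arm. Of all tested genes, 5.98% had no overlap of LPS and PBS libraries in exposed mice, and 17.5% in control mice. Tsc22d3 (GILZ), a target of the glucocorticoid receptor, rose in exposed mice by 0.34 ± 0.06 (SE, adjusted p = 0.00579) and had 0.27 ± 0.07 (SE, adjusted p = 0.125) in control mice. Across the 100 genes the responses of the 2 arms had a Pearson correlation of 0.565 and across all genes of 0.216, where genes share libraries and are not replicates. The list was chosen in exposed mice under cannabidiol. Responses particular to control mice, or to exposed mice without cannabidiol, could not enter it. Its median thus covers only responses also seen under cannabidiol. By limma voom its median was -0.07, and with bulb and cerebellar scores as covariates -0.04.

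Genes of the systems that the 2 chemicals act on were looked at for themselves. Of 19 cholinergic genes 0 were called in either arm or in the interaction. An unadjusted interaction p under 0.05 was held by 2 of them, against 7.31% of all genes. Interaction estimates were positive for 3 of the 19 and the median was -0.19. Chrna4, a subunit of the main nicotinic receptor of brain, had -0.25 (interval -0.47 to -0.02), the muscarinic receptor Chrm1 -0.26 (interval -0.50 to -0.01) and Chrna2 -0.83 (interval -1.82 to 0.16). Of 11 sodium channel genes 0 were called, and 3 had an unadjusted interaction p under 0.05, against 7.31% of all genes. The median of the 11 was -0.05, with a range of -0.10 to 0.05 as each library was left out. Scn3b, an auxiliary subunit, had -0.40 (interval -0.61 to -0.18) and Scn3a -0.42 (interval -0.75 to -0.08). Over the 24 alternative settings Scn3b ran from -0.46 to -0.27 and Scn3a from -0.51 to -0.13. The sodium channel score was 6.44 to 6.49 in GWVehLPS and 6.37 to 6.62 in GWVeh, against 6.57 to 6.59 in CtrlVehLPS and 6.47 to 6.51 in CtrlVeh. Every GWVehLPS library thus lay below every CtrlVehLPS library, as in 2 of 47 lists scored.

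Some lists leaned the other way. Heat shock and unfolded protein response genes had 0 of 27 called in exposed mice and 3 in control mice (Calr, Pdia4 and Xbp1), with 8 positive interactions and a median of -0.05. The control count ran from 0 to 5 as each library was left out, and was 0 without CtrlVehLPS replicate 2 or any 1 of the CtrlVeh libraries. Calr, a chaperone of the endoplasmic reticulum, had 310.0, 293, 272 and 337 CPM in GWVehLPS and 297, 288, 284 and 256 CPM in GWVeh, against 306, 312 and 303 CPM in CtrlVehLPS and 243, 226 and 234 CPM in CtrlVeh. The LPS groups overlapped, and GWVeh lay above CtrlVeh. It rose in control mice by 0.39 ± 0.07 (SE, adjusted p = 0.02), had 0.11 ± 0.06 (SE, adjusted p = 0.665) in exposed mice and an interaction of -0.28 (95% interval -0.49 to -0.08, adjusted p = 0.582). Dnajb11 had -0.24 (interval -0.48 to -0.01) and Hspa1a, whose reads cannot be told from those of its copy Hspa1b with certainty, -0.53 (interval -1.10 to 0.04). Over all 19451 tested genes, 11 fell with LPS in exposed and 9 in control mice. Some cholesterol synthesis genes fell with LPS, 4 of 27 in exposed mice (among them Hmgcs1, Lss and Msmo1) and 2 in control mice (Hsd17b7 and Insig1), with a median interaction of -0.04. The exposed count was 0 without GWVehLPS replicate 3 or GWVeh replicate 2 or 4. The regulator Srebf2 had -0.20 (interval -0.38 to -0.01) and Pmvk -0.25 (interval -0.51 to 0.01). Cytosolic ribosomal protein genes had 6 of 84 positive estimates and a median of -0.20. An unadjusted p under 0.05 was held by 25 of the 84, all negative, against 7.31% of all genes, and 0 passed the adjustment. Their scores were 6.2 to 6.41 in GWVehLPS and 6.19 to 6.5 in GWVeh, against 6.34 to 6.51 in CtrlVehLPS and 6.16 to 6.31 in CtrlVeh. Rpl35a had -0.52 (interval -0.85 to -0.19), Rps2 -0.42 (interval -0.69 to -0.15) and Rpl30 -0.90 (interval -1.47 to -0.33), and ribosomal protein genes have many near-identical pseudogenes.

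The 2 lists of brain regions had one-sided estimates. All 16 cerebellar genes had positive interactions, with a median of 0.87 that was 0.47 without CtrlVehLPS replicate 1. Olfactory bulb genes had 1 of 14 positive interactions and a median of -1.19, and 5 of them rose in control mice (Dlx5, Scgn, Shisa3, Th and Trh). That count was 1 without CtrlVehLPS replicate 1, 1 without CtrlVeh replicate 2, and 0 without CtrlVeh replicate 1 or 3. Dlx5, a transcription factor of bulb interneurons, had an interaction of -1.09 (interval -1.70 to -0.48) and Meis2 -0.57 (interval -0.94 to -0.21). Calb1, abundant in Purkinje cells, had 0.74 (interval 0.13 to 1.35), Itpr1 0.47 (interval -0.08 to 1.03) and En2 1.35 (interval -0.24 to 2.95). With the 2 regional scores as covariates in the fit, 0 genes passed in the interaction.

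**Figure D5:**
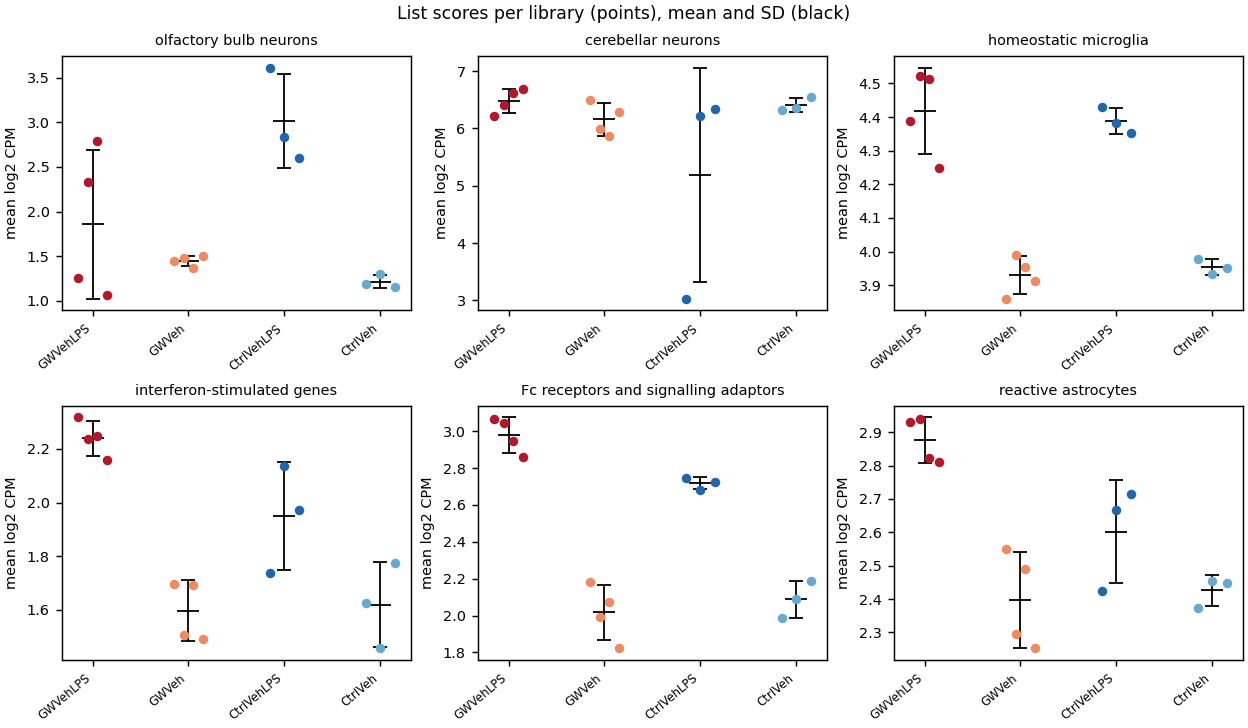
Mean log2 CPM over the members of 6 lists in each library (points) with the group mean and SD in black, groups from left to right GWVehLPS, GWVeh, CtrlVehLPS and CtrlVeh. Bulb genes are high in all 3 CtrlVehLPS libraries and 2 of 4 GWVehLPS libraries, and 1 CtrlVehLPS library lies at 3.03 for cerebellar genes. Microglial scores are alike in the 2 arms, and interferon, Fc receptor and reactive astrocyte scores are higher in every GWVehLPS than in every CtrlVehLPS library. That order held for 9 of 47 lists scored.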

How the data were processed

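RNA of whole mouse brain was sequenced as 150 bp paired reads from stranded poly(A) libraries, per the labels' protocols. The values are the authors' deposited raw counts per gene, and the submitters' processing notes name GRCm38 (mm10). The aligner, the counter and its strand setting were not given in the sources used here, so overlapping and antisense genes are uncertain. Of 56748 features, 19451 passed filterByExpr. TMM scaling and edgeR's quasi-likelihood test (edgeR 4.0.16, limma 3.58.1, R 4.3.3, robust) were fitted to 14 libraries with 4 group means and 10 residual degrees of freedom. P-values were Benjamini-Hochberg adjusted over all tested genes, with calls at 0.05. The interaction was (GWVehLPS - GWVeh) - (CtrlVehLPS - CtrlVeh). The test was checked on simulated data. A list's score is its mean log2 CPM (prior count 2). Named genes were the 8 leading genes in each direction with an average of at least 1 CPM, the 3 members of each described list with the smallest interaction p, the first 8 genes of the cannabidiol list and an LPS panel. Others are named because they passed in an arm, and were chosen after their values were seen. Some named genes are not reported here. Members and lists were chosen with earlier results of these data known. Alternatives were other scalings, filters, DESeq2 (1.42.0), limma voom, all 22 libraries, a replicate block, regional covariates and each library left out. Counting error is not the limit at 17152595 to 28779951 counts per library, except for low genes. The labels do not say that the mice came from separate litters or cages, so p-values measure the spread between these mice.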

Additional observations from a re-analysis of the deposited data

Results flagged for a closer look

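In groups of 4, 190 sets of CPM values were examined, and in 12 of them 1 library stood far from the other 3 relative to the whole spread, where chance alone gives about 1 in 20. Among leading genes, Ephb2 had 30.6 CPM in GWVehLPS replicate 1 (others 33.9 to 34.2), Hap1 had 252.1 CPM in GWVehLPS replicate 2 (others 231 to 233) and Marcksl1 had 46.2 CPM in GWVeh replicate 2 (others 41.2 to 41.6). Among interferon genes, Irf7 had 8.89 CPM in GWVehLPS replicate 1 (others 4.24 to 4.75), and Gbp3 had 4.38 CPM in GWVehLPS replicate 4 (others 5.69 to 5.78). Among myeloid genes, Nlrp3 had 1.71 CPM in GWVehLPS replicate 4 (others 0.805 to 0.902), Tyrobp had 13.3 CPM in GWVehLPS replicate 2 (others 9.64 to 10.0) and Cybb had 1.49 CPM in GWVeh replicate 3 (others 0.656 to 0.753). Chil3 had 1.05 CPM in GWVeh replicate 1 (others 0.10 to 0.166), a library with 966.7 CPM of red cell transcripts, and S100a8 had 5.61 CPM in GWVehLPS replicate 4 (others 0.471 to 1.08). Of ribosomal protein genes, Rpl35a had 74.5 CPM in GWVeh replicate 1 (others 59.2 to 59.5), and Rpl30 had 67 CPM in GWVehLPS replicate 1 (others 49.3 to 50.7).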

How the results depend on the processing

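The count of interaction calls was 0 under the other scalings, a stricter filter, limma voom, all 22 libraries and regional covariates. It was 56 with no filter on low counts, 6 by DESeq2 (Cadps2, Chd3, Cpne6, Hap1, Olfm3 and Sez6) and 0 to 2 as each library was left out (2 without GWVeh replicate 4, Hap1 and Trh). LPS calls in exposed mice were 335 with no filter, 248 by DESeq2 and 88 to 216 as each library was left out (94 without GWVehLPS replicate 1, 95, 94 and 88 without GWVeh replicates 2, 3 and 4). LPS calls in control mice were 113 at an adjusted p of 0.1, 316 with no filter, 182 by DESeq2, 641 by limma voom, 25 with bulb and cerebellar scores as covariates, and 26 with the bulb score and no CtrlVehLPS replicate 1, an alternative chosen after seeing the data. They were 11 to 85 as each library was left out (38 and 34 without GWVeh replicates 2 and 3, 42 and 39 without CtrlVehLPS replicates 2 and 3, and 19, 17 and 11 without CtrlVeh replicates 1, 2 and 3). The order of the exposed and control counts was the opposite with limma voom, which called 218 in exposed mice. The median interaction of the 100 cannabidiol-arm genes was -0.0685 by limma voom and -0.0385 to 0.0407 as each library was left out. Replicate numbers did not pair the samples: 0 of 19 same-number pairs had a correlation over 0.1 (-0.0902 to 0.0933), and in 6 of the 19 the correlation was the best with its own number. The fit with the replicate block gave 0 interaction calls, 136 exposed and 60 control LPS calls, and a median of 0.0241.

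Of 91 named genes, 76 kept the sign of their interaction over 24 settings, or over 23 for Cxcl10, Nlrp3 and Ccl3, which did not pass the stricter filter. By limma voom the sign changed for Sparc (-0.0686), Gstm1 (-0.0390), Sparcl1 (-0.0755), Mobp (-0.00213), Tns3 (-0.0554), C3 (-0.241) and Gfap (-0.133). With both regional covariates it changed for Gstm1 (-0.0792), Tsc22d3 (-0.0336), Tns3 (-0.183), C3 (-0.281), Gfap (-0.0541), Irf7 (-0.732), Sall1 (0.0921), S100a8 (-0.0631) and Pecam1 (-0.0547). With the bulb covariate and no CtrlVehLPS replicate 1 it changed for Gstm1 (-0.0470), Tsc22d3 (-0.0291), Tns3 (-0.153), C3 (-0.133), Irf7 (-0.567), Sall1 (0.0598), S100a8 (-0.0575) and Pecam1 (-0.0146). As each library was left out, estimates crossed 0 for Sparc (-0.00252 to 0.202), Sparcl1 (-0.0247 to 0.0724), Tns3 (-0.0609 to 0.0842), Ptgs2 (-0.271 to 0.0364), Cd14 (-0.337 to 0.0101), C3 (-0.149 to 0.420), Gfap (-0.0314 to 0.209), Irf7 (-0.135 to 0.533) and C1qb (-0.0623 to 0.108). The cause of these changes was not tested. Depth limits genes of few counts: Tnf, Il1b, Il6 and Ccl2 could not be compared.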
